A study of Mus musculus with 15 samples.

Results

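Deletion of the DNA methyltransferase gene Dnmt1 from the Six2 lineage of the mouse kidney was compared with its floxed control at birth, over 1-kb windows of the genome. Methylation was read by reduced representation bisulfite sequencing (RRBS), in which restriction fragments rich in CpG are sequenced after a treatment that tells methylated from unmethylated cytosine. A window is 1000 consecutive bases of an autosome, and it was used where at least 3 cytosine positions each had at least 10 calls in all 6 libraries. This rule kept 50993 windows of the 1151532 autosomal windows with any call in the 9 RRBS libraries of the series, and of the 1117516 with any call in these 6. The windows held 264592 positions, with a median of 4 per window, and 59.0% of windows rested on 3 or 4 positions. Just outside the rule, 31941 windows with 2 such positions went from a mean of 69.9% in controls to 50.3%, and just inside it, 18776 windows with 3 went from 65.3% to 47.8%.

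All 6 RRBS samples were kidney samples of C57BL/6 mice at postnatal day 0 (P0). The 3 controls carried floxed Dnmt1 alleles without Cre (Dnmt1 f/f), and the 3 knockouts (KO) carried the same alleles with a Cre driven by the Six2 promoter (Six2Cre Dnmt1 f/f). RNA sequencing of 3 controls and 3 KO of the same genotypes and age was used for the genes next to the windows, and the labels do not say that the RNA and the DNA came from the same animals. The remaining 3 RRBS libraries, from wild type kidneys at 6 weeks, served only to choose windows in an alternative. Six2 marks the progenitors of the nephron, so this Cre leaves Dnmt1 intact in the ureteric bud, the stroma, the vessels and the blood cells of the same kidney. The labels name Six2-positive cells as the source, whereas the extraction protocol names the whole organ, and the RNA held markers of 7 cell types, from nephron progenitors to leukocytes. In such bulk samples a smaller share of methylated cells and less methylation per cell cannot be told apart. Nothing states that replicates were separate animals, so p-values measure only the spread between these samples.

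Dnmt1 is the maintenance methyltransferase: after replication it copies the methylation of the parental strand onto the daughter strand, with Uhrf1 as the protein that finds the hemimethylated CpG. Dnmt3a and Dnmt3b place methyl groups on unmethylated DNA, and Tet enzymes oxidise them. CpG-rich promoters of housekeeping and developmental genes are normally unmethylated, gene bodies and intergenic DNA are mostly methylated, and a set of germline genes is silenced in somatic cells by methylation of a CpG-rich promoter.

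In the RNA, Dnmt1 (ENSMUSG00000004099.14) was counted 5908, 4826 and 6921 times in control libraries and 3526, 3378 and 2467 times in KO libraries. The groups did not overlap, and the log2 fold change was -0.74 (SE 0.12, edgeR quasi-likelihood test with Benjamini-Hochberg adjustment, adjusted p 0.00577). RRBS libraries held 18424875 to 88765177 calls, and KO 3 was the shallowest, with a median of 85 calls per window against 170 to 403 in the other 5. The summed RNA level of tubule markers was 4000 to 8713 CPM (read counts scaled to library size) in controls and 995 to 1166 in KO, that of podocyte markers 1314 to 2134 and 1064 to 1194, and that of endothelial markers 975 to 1284 and 674 to 790. For nephron progenitor markers, the ranges overlapped, at 1153 to 1219 and 1113 to 1171. No RNA was read from the RRBS libraries themselves, and the part of cell composition in the methylation differences was not tested.

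Promoter sequences are shown first for 6 start sites on which the results below turn. Each is the RefSeq stretch of 300 bases around a gene's start in build GRCm38.p6, 5′ to 3′ on the gene's strand, and capitals mark the CG dinucleotides whose cytosine was measured. Of 27582 measured positions that fell inside RefSeq promoters, 27582 lay on a CG, which ties the deposited positions to this build. Spp1, Ndufb2 and Pstpip1 belong to the start-site windows with the widest decreases. Sycp1 and Tex101 are germline genes, and Dnmt1 is an unmethylated promoter for contrast; these 3 were chosen after their values were seen.

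Spp1, chr5:104434861-104435160, + strand: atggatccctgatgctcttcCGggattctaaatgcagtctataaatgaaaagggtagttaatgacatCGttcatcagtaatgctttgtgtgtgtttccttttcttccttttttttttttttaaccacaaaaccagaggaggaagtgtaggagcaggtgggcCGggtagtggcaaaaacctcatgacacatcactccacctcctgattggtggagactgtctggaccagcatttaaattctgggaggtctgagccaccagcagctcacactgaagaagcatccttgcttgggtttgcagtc
Ndufb2, chr6:39592315-39592614, + strand: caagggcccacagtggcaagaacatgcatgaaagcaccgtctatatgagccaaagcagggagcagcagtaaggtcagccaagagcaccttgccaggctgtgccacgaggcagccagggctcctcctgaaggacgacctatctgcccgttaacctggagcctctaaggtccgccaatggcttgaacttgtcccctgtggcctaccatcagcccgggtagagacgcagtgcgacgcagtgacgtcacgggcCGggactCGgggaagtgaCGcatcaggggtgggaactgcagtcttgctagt
Pstpip1, chr9:56089726-56090025, + strand: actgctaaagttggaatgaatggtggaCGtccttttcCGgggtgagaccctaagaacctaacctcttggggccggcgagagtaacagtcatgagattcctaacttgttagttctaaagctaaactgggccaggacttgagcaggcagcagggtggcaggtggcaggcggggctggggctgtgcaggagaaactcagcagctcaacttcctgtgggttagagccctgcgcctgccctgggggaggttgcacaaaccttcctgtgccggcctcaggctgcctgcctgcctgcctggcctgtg
Sycp1, chr3:102936051-102936350, - strand: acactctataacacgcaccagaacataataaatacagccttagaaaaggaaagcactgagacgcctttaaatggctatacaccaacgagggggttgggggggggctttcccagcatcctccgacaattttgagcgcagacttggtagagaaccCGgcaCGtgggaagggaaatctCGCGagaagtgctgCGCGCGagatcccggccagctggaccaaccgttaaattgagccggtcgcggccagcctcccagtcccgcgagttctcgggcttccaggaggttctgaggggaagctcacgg
Tex101, chr7:24672001-24672300, - strand: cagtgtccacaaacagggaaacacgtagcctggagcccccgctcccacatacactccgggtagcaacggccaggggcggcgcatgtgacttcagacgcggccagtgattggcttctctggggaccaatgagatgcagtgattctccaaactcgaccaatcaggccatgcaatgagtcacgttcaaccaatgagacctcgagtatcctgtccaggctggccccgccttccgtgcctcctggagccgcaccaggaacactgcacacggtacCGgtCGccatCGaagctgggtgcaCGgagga
Dnmt1, chr9:20952574-20952873, - strand: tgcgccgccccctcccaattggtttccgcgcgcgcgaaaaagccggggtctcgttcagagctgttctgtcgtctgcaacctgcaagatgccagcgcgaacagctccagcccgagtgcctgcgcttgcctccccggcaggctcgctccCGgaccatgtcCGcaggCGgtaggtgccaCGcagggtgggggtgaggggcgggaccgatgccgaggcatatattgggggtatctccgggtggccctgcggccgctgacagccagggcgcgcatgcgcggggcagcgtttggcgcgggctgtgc

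The 6 sequences differ in how many CG they hold: 3 in Spp1, 7 in Pstpip1, 14 in Ndufb2, 19 in Tex101, 21 in Sycp1 and 33 in Dnmt1. The median over 20084 protein-coding promoters of this table was 14, and 884 held none. Within the Sycp1 stretch the measured cytosines were at 98.7%, 95.8% and 96.1% in controls 1 to 3, and at 76.8%, 88.1% and 81.4% in KO 1 to 3. Those of Tex101 were at 94.2%, 93.6% and 92.9% in controls and 79.9%, 71.6% and 83.2% in KO. In both germline promoters every KO lay below every control, as in that of Ddx4. The stretches of Mael, Slc25a31, Fkbp6 and Tuba3b overlapped, with the highest KO at 83.3% against a lowest control of 81.6% in Mael, at 97.4% against 95.2% in Slc25a31 and at 100% against 94.0% in Tuba3b. The Dnmt1 stretch was at 0%, 0.755% and 0.893% in controls and 2.59%, 1.10% and 0% in KO, with overlap between the groups.

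Across the 50993 windows, mean methylation was 53.1%, 53.2% and 52.8% in controls and 40.4%, 37.2% and 40.8% in KO. All KO lay below all controls, and KO 2 was the lowest. Group means were 53.1% ± 0.208 and 39.5% ± 1.96 (SD, n = 3 each), a difference of -13.6 points (two-sided exact permutation p 0.1, the smallest that 3 against 3 allows). The KO retained 74.4% of the control level. The spread among KO was thus wider than among controls, and both were small beside the difference.

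The loss moved the methylated part of the genome to intermediate levels and left the unmethylated part in place. Windows of 80% or more made up 40.1%, 40.7% and 39.98% of all windows in controls 1 to 3, and 6.08%, 3.21% and 9.98% in KO 1 to 3. Windows between 10% and 80% went the other way, from 30.8%, 30.4% and 30.6% to 63.9%, 66.2% and 59.8%. Windows under 10% made up 28.9% to 29.5% of each control and 30.03% to 30.6% of each KO. In controls the fullest bin of methylated windows was 90% to 95%, with 13.2% to 14.9% of windows, and in KO that bin held 0.378% to 1.78%. In each KO the fullest bin of methylated windows instead lay between 60% and 70%, where each 5-point bin held 6.81% to 8.58% of windows. In KO 2 the peak reached lower, with 8.31% of windows at 55% to 60% and 7.07% at 65% to 70%.

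**Figure D1:**
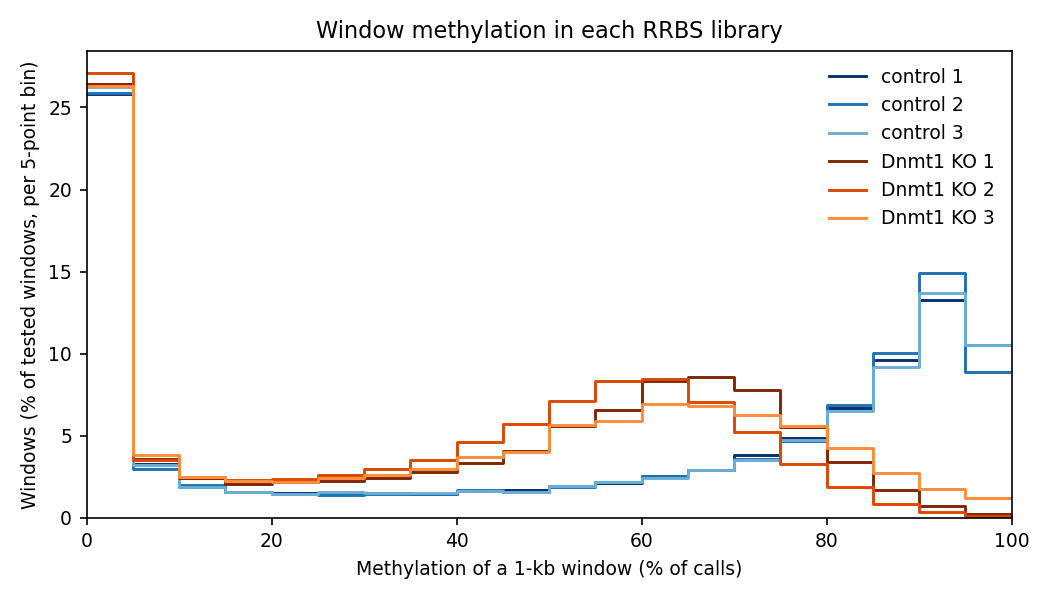
Distribution of window methylation in each library. The x axis is the methylation of a 1-kb window in percent of calls, the y axis the percent of the 50993 windows per 5-point bin, and each line is 1 library. The peak near 0% is at the same height in all 6 libraries, at 25.8% to 27.1%, whereas the peak at 90% to 95% of the 3 controls is replaced by a broad one at 60% to 70% in the 3 KO.

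A window was called where a moderated quasi-binomial model of its methylated and unmethylated calls gave a Benjamini-Hochberg adjusted p under 0.05 and the group means differed by at least 10 points. By this rule 26474 of 50993 windows (51.9%) were lower in KO and 91 (0.178%) were higher. Without a test, every KO lay below every control in 26899 windows (52.8%) and above in 773 (1.52%). The difference per window had a median of -14.7 points, with percentile 5 at -33.2 and percentile 95 at 1.71, and 10979 windows (21.5%) stayed within 1 point of 0.

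The size of the loss followed the control level. The 13272 windows under 5% in controls averaged 1.53% before and 1.61% after deletion (exact permutation p 0.4), and none had room to fall by 10 points. The 3338 windows of 5% to 20% went from 11.3% to 10.2% (exact permutation p 0.2), with overlapping groups. In the 2977 windows of 20% to 40% the mean went from 30.2% to 24.7%, in 3744 windows of 40% to 60% from 50.6% to 37.6%, and in 7026 windows of 60% to 80% from 71.4% to 51.4%. All KO lay below all controls in each of these 3 classes.

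At the top of the scale the loss in points levelled off. The 8615 windows of 80% to 90% went from 85.7% ± 0.174 to 62.0% ± 2.996, and the 12021 windows of 90% or more from 93.9% ± 0.210 to 70.5% ± 3.03 (SD, n = 3 each), differences of -23.6 and -23.4 points. As a share of the control level, the loss was 18.3% at 20% to 40%, 25.6% at 40% to 60%, 28.1% at 60% to 80%, 27.6% at 80% to 90% and 24.9% at 90% or more. Each class was chosen on the controls, so the step between neighbouring classes is a description. The smallest p the exact test allows, 0.1, was reached in each of the 5 classes.

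**Figure D2:**
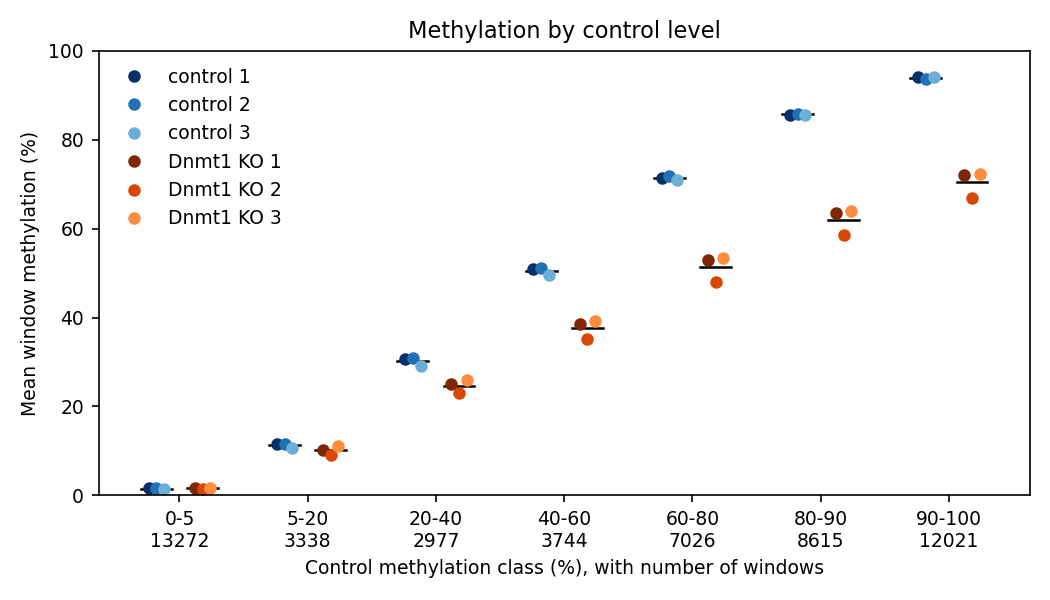
Mean window methylation by class of control level. The x axis gives the class and its number of windows, the y axis the mean methylation in percent, each point is 1 library and each bar a group mean. From 20% upward the 3 KO lie below the 3 controls and KO 2 is the lowest, and below 20% the groups lie together.

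Where windows were highly methylated, the loss was broad rather than confined to a subset. In the 20636 windows of 80% or more, control means were 90.5% ± 0.0544 and KO means 67.0% ± 3.01 (SD, n = 3 each; exact permutation p 0.1). Of these windows 18984 (92.0%, beside 51.9% of all windows) were called lower. None was called higher: 0 reached an unadjusted p under 0.05 in that direction, and limma on logit methylation called 0. The KO mean was at or above the control mean in 20 windows. Choosing the windows by the adult kidneys instead of the controls gave 19578 windows that retained 74.3%, beside 74.0% in the main choice.

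The share that each of these windows retained formed a single peak. Its median was 74.1%, its quartiles 68.4% and 79.7%, and percentiles 1 and 99 lay at 51.5% and 93.5%. Over 90% was retained in 597 windows (2.89%), under 50% in 135 (0.654%) and under 25% in 0. No window of this class fell below a KO mean of 20%. With at least 100 calls in every library, 6670 windows remained, their quartiles narrowed to 69.8% and 79.3%, and 7 (0.105%) retained under 50%.

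**Figure D3:**
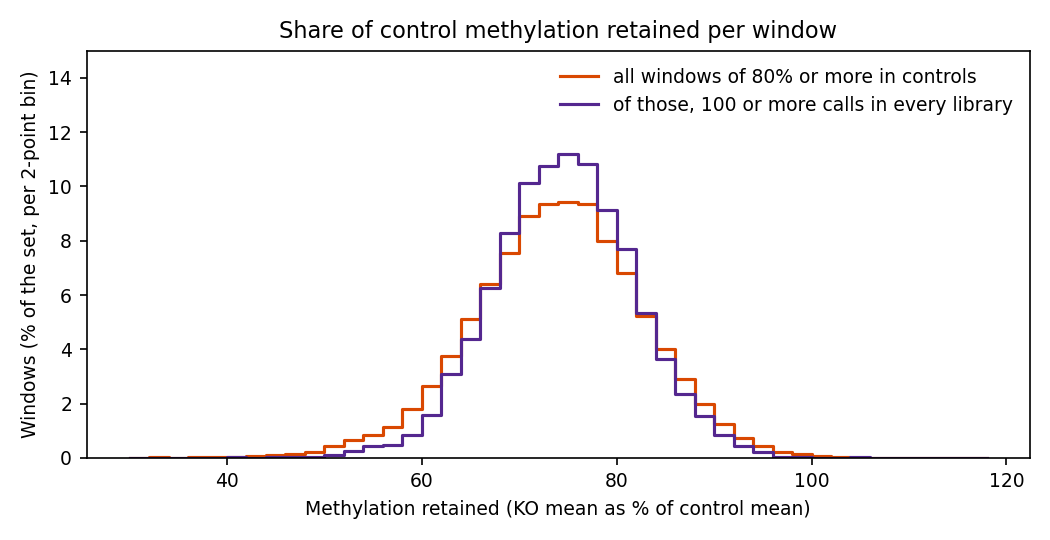
Methylation retained per window, for windows of 80% or more in controls. The x axis is the KO mean as a percent of the control mean, the y axis the percent of each set per 2-point bin. One line is all 20636 windows and the other the 6670 with at least 100 calls in every library. Both have 1 peak near 74%, and the deeper set is narrower.

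Much of the spread between windows was of the size of the error within a window. Over the 20636 windows the difference had an SD of 7.74 points, while its standard error from replicates, taken around each library's own mean, was 6.51 points, and that from counting calls alone 2.73 points. Subtracting the replicate variance left an SD of 4.19 points between windows, or 29.2% of the variance. With at least 100 calls the SD of the difference was 6.30 points, the replicate error 4.81 points and the remainder 4.07 points (41.8% of the variance). Replicates within a window differed more in KO, with an SD of 10.5 points, than in controls, with 4.21 points. KO 3 had fewer calls than any other library, and the part of depth in this gap was not tested; in the deeper windows both values were smaller, at 7.71 and 3.14 points.

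The loss of a window carried over weakly from one pair of libraries to another. The correlation over 20636 windows between the loss in control 1 and KO 1 and that in control 2 and KO 2, which share no library, was 0.153, and the other pairings gave 0.107 and 0.122. In the 6670 deeper windows the values were 0.251, 0.169 and 0.186. Neighbouring windows also shared little: the correlation of the loss was 0.0990 for 683 pairs that touch, 0.0706 for 1539 pairs 2 to 5 kb apart and 0.0186 for 4936 pairs over 5 and up to 20 kb apart. These are descriptions across windows of the same 6 libraries. KO 2 was the lowest KO library in 50.2% of the windows, KO 3 in 28.0% and KO 1 in 21.8%.

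Chromosomes lay close together. Among the 27662 windows of 60% or more in controls, control means per autosome ranged from 85.0% to 86.5% and KO means from 62.4% to 63.8%. The difference ranged from -22.2 points on chromosome 17 to -23.1 points on chromosome 16, a range of 0.891 points, and 26.0% to 26.9% of the control level was lost. With at least 20 calls per position, which left 9091 windows, the range was 2.22 points. On 19 of 19 autosomes every KO lay below every control and KO 2 was the lowest. The SD between the KO libraries over the same windows was 2.998 points. That SD holds shifts shared by all autosomes of a library, so it is no measure of error for the range of 0.891 points. Whether chromosomes differ beyond their error was not tested.

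Start sites differed from the rest of the genome in their control level more than in their loss. Protein-coding starts came from the RefSeq promoters, which held 16456 of 20661 autosomal genes and none of chromosome 18, whose windows therefore count only as genic or intergenic. Of 8943 windows within 500 bases of a start, 87.3% were under 10% in controls, and the class mean went from 7.83% to 6.10%. In 530 of them (5.93%, beside 51.9% of all windows), near the starts of 517 of 7097 genes, methylation was called lower. Among all tested windows, mean control methylation rose with distance from a start, from 6.03% in windows that hold one to 44.8% at 1 to 2 kb and 66.03% at 10 to 20 kb. The KO followed, at 4.77%, 33.1% and 49.0%.

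Where the start site was itself methylated, the loss was close to that elsewhere. The 459 start-site windows of 60% or more in controls went from 82.7% ± 0.230 to 60.8% ± 3.13 (SD, n = 3 each) and retained 73.5%. The retained share was 73.6% in 15151 windows inside protein-coding genes, 73.4% in 2486 inside noncoding genes and 73.6% in 9566 between genes. The gap between start-site and intergenic windows was -3.22, -3.15 and -2.67 points in controls and -2.61, -2.58 and -1.75 points in KO. It was 0.698 points smaller in KO, without overlap (exact permutation p 0.1). With at least 5 calls per position the value was 0.173 points (exact permutation p 0.7) and with a reach of 1000 bases 0.186 points (exact permutation p 0.4).

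**Figure D4:**
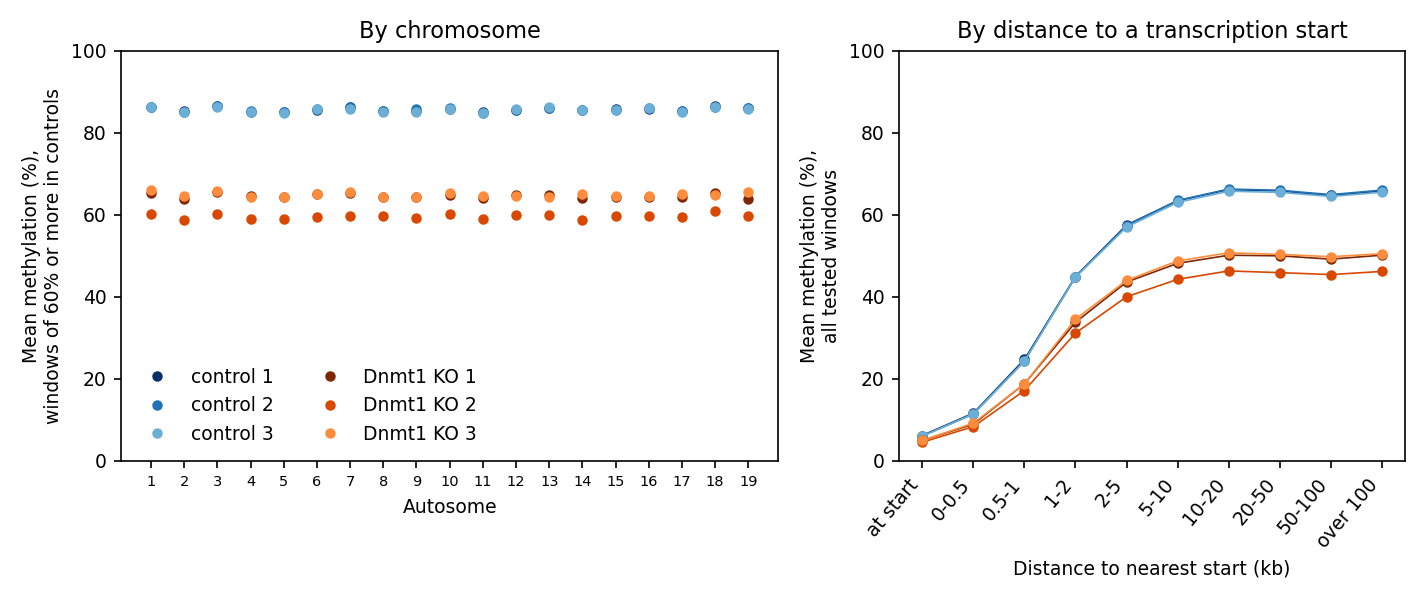
Mean methylation by autosome, for windows of 60% or more in controls (left), and by distance from the nearest protein-coding start, for all tested windows (right). Both y axes are in percent from 0, and each point is 1 library. On 19 autosomes the 3 KO lie between 58.8% and 66.1%, all below the 3 controls, and on the right both groups rise with distance and part as they rise.

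CpG-dense windows lost somewhat less. Density was taken as the number of positions with any call, since no genome sequence was used here. Among windows of 60% or more in controls, 6568 with more than 13 positions went from 85.0% to 63.8%, a difference of -21.2 points, and 7130 with at most 6 positions from 86.4% to 62.8%, a difference of -23.6 points. The dense mean minus the sparse mean was -1.43, -1.34 and -1.33 points in controls 1 to 3, and 0.844, 1.10 and 0.967 points in KO 1 to 3. The gap thus changed sign in every KO, by 2.34 points (exact permutation p 0.1), and moved by 1.16 points with at least 5 positions per window. Across the windows of 80% or more, the rank correlation of the difference with the number of positions was 0.113.

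The loss reached most genes that were measured. Lower windows lay within the bounds of 7076 of the 12412 protein-coding genes with a tested window. Of the lower windows 55.5% lay inside such bounds, beside 63.5% of all tested windows. The 5 genes with the most lower windows were long ones. Cdh13, which encodes T-cadherin, had 36 of 41 windows lower, and its mean went from 81.2%, 80.2% and 81.8% in controls to 61.9%, 56.9% and 61.5% in KO. Tenm3, a teneurin, had 34 of 46, Wwox, a WW-domain oxidoreductase, 32 of 58, Camta1, a calmodulin-binding transcription activator, 31 of 57, and the zinc transporter gene Slc39a11 24 of 33. In these 4 genes the differences of the means were -17.8, -13.9, -15.7 and -16.7 points, and in no library of KO did a gene mean reach a control. Cdh13 spans 1184913 bases and Slc39a11 405350. Of all 23974 windows inside protein-coding genes and not counted as start-site windows, 59.4% were lower. Wwox and Camta1 were below that share.

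The widest decreases, in windows with at least 5 positions, at least 30 calls per library and every KO below every control, were named by 1 window per nearest gene. They are extremes of 7530 such windows, so their sizes are a description. A window inside Tmco4 (chr4:139053001-139054000) was at 97.3%, 94.4% and 94.3% in controls and 32.7%, 1.32% and 51.1% in KO. The KO libraries differed there by more than in the average window. The difference was -67.0 points (quasi-binomial model, adjusted p 0.000719), and -53.5 points without KO 2.

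The other 7 lay outside protein-coding genes, and the gene is the nearest one. The window nearest to Lemd2, an inner nuclear membrane protein (chr17:27290001-27291000), went from 97.9%, 96.3% and 91.9% to 30.5%, 52.5% and 48.9%. The one nearest to Crispld2, which encodes a secreted protein (chr8:120059001-120060000), went from 94.1%, 94.96% and 98.3% to 38.0%, 49.5% and 46.0%. The one nearest to Selenok, an endoplasmic reticulum selenoprotein (chr14:29937001-29938000), went from 74.3%, 77.4% and 84.7% to 31.0%, 28.3% and 36.9%, on 244 to 1729 calls per library. These 3 kept their KO values above 28%, whereas KO values went down to 11.7% near Arid5b and 12.2% near Rassf10.

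The windows nearest to Arid5b, Cdh13, Rassf10 and Hlx had differences of -50.7, -50.4, -50.2 and -47.7 points. Arid5b encodes a chromatin regulator and Hlx a homeobox factor. The controls themselves were spread near Arid5b, at 73.1%, 49.4% and 85.0%, and its call was lost with unmoderated dispersion (adjusted p 0.0708). The Cdh13 window lies 52017 bases outside the gene and the Hlx window 300143 bases away, so nearest says little about either gene. In the RNA, Cdh13 was the 1 of these 8 nearest genes that passed the edgeR test. That is near the share over all 18131 genes tested, of which 6.36% were higher and 8.23% lower. Cdh13 was counted 188, 170 and 201 times in control libraries and 88, 80 and 79 times in KO libraries (log2 fold change -0.996, SE 0.21, edgeR adjusted p 0.0166).

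At the other extreme, 3 of the 5979 well-covered windows of 80% or more had nearly no decrease. The window nearest to Dthd1 (chr5:62977001-62978000) was at 78.2%, 89.7% and 80% in controls and 78.6%, 77.5% and 91.7% in KO. A window inside Wdfy3, which encodes an autophagy adaptor (chr5:101848001-101849000), was at 78.8%, 89.8% and 84.9% and at 85.3%, 74.3% and 93.3%. The window nearest to Arhgef26 (chr3:61909001-61910000) was at 88.4%, 90.1% and 87.0% and at 90.1%, 79.5% and 94.8%. In all 3 the groups overlapped, KO 2 was below the control mean and KO 3 above every control. The 3 were named as the smallest decreases, so in none of them could all KO libraries reach the control mean.

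Among start-site windows the same rule left 205, and the 8 widest decreases spanned genes of unlike function. The Cpb1 window (chr3:20275001-20276000; a pancreatic carboxypeptidase gene) was at 76.4%, 68.1% and 54.7% in controls and 26.7%, 27.7% and 9.30% in KO. The window beside the start of Spp1, which encodes osteopontin (chr5:104434001-104435000), was at 73.8%, 68.3% and 68.3% and at 35.4%, 24.0% and 37.6%. The Ndufb2 window (chr6:39592001-39593000; a subunit of respiratory complex I) was at 69.3%, 66.5% and 68.9% and at 42.1%, 21.4% and 30.3%. The differences were -45.1, -37.8 and -37.0 points, with adjusted p of 0.000481, 0.00021 and 0.000773 by the quasi-binomial model.

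For Ndufb2 the methylated cytosines of the window lay outside the promoter printed above. There the 3 measured CG were at 2.38%, 0.685% and 0% in controls and 2.08%, 1.59% and 1.96% in KO. In Spp1 the printed stretch was itself methylated, at 62.2%, 52.1% and 54.1% in controls, and lower in KO, at 28.0%, 27.0% and 37.5%. The 2 measured CG of Pstpip1 went from 81.7%, 68.0% and 64.1% to 43.3%, 23.8% and 9.09%. Both groups were thus separated in the sparse promoters of Spp1 and Pstpip1, and overlapped in that of Ndufb2.

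The remaining 5 windows belonged to Ano5, Capns1, Rlbp1, Wfdc9 and Pstpip1, with differences of -36.9, -36.8, -36.4, -34.0 and -32.6 points. Capns1 encodes the calpain small subunit, Rlbp1 a retinaldehyde-binding protein, and Pstpip1 an adaptor of blood cells. The Rlbp1 window (chr7:79386001-79387000) was at 84.7%, 90.6% and 97.8% in controls and 69.2%, 52.2% and 42.4% in KO. In the RNA, Rlbp1 rose from 9, 16 and 14 reads in the controls to 46, 45 and 39 in KO (log2 fold change 1.90, SE 0.34, edgeR adjusted p 0.00774). Rlbp1 was the 1 gene of the 8 that passed, and Wfdc9 had too few counts to test. Of all 18131 genes tested 6.36% were higher and 8.23% lower, so 1 passing gene is near the share over all. Spp1 had 7779, 10491 and 16562 reads in the controls and 7264, 7059 and 7252 in KO (log2 fold change -0.49, SE 0.22, edgeR adjusted p 0.203).

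Germline genes were the group of the 13 gene lists with the most methylated start sites. Of 35 genes 18 had a start-site window, 23 windows in all, of which 21, at 17 genes, were at 60% or more in controls. These 21 averaged 90.4%, 91.7% and 91.2% in controls and 76.2%, 68.8% and 78.5% in KO. Every KO mean was below every control mean, and 81.8% of methylation was retained, beside 73.5% over the 459 methylated start-site windows. The median difference was -15.3 points, beside -21.7 points over those 459. Called lower were 15 of the 21, at 13 genes, beside 389 (84.7%) of the 459. In 13 of the 21 every KO lay below every control, beside 364 (79.3%) of the 459, and KO 3 was the highest KO in 15.

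The members differed in how far they fell. The window of Hormad1, a meiotic chromosome axis gene (chr3:95559001-95560000), was at 89.7%, 88.4% and 84.8% in controls and 64.5%, 49.1% and 50% in KO. The second window of Dazl, a germ cell RNA-binding protein (chr17:50294001-50295000), lies 381 bases from the start and was at 94.6%, 96.1% and 94.4% and at 83.4%, 71.2% and 58.7%. The Dazl window that holds the start (chr17:50293001-50294000) was at 92.7%, 93.1% and 86.6% and at 77.8%, 78.4% and 90.04%, with overlap, and its difference of -8.72 points was not called. That of Sohlh2, a germ cell transcription factor (chr3:55182001-55183000), was at 96.9%, 98.5% and 97.8% and at 79.0%, 77.8% and 89.1%. For Hormad1, the second Dazl window and Sohlh2 the differences were -33.1, -23.9 and -15.8 points, with adjusted p of 0.000654, 0.00107 and 0.000213 by the quasi-binomial model. These 3 were chosen after their values were seen.

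Several germline start windows were not called. The windows of Tuba3b, a tubulin gene, were not called, with differences of -7.16 and -5.77 points and KO 3 at 100% and 99.5%. The Smc1b window, a meiotic cohesin gene, was at 75.7%, 74.7% and 71.4% and at 80.2%, 61.5% and 62.5%, with overlap. Around the Smc1b start itself, the 4 measured CG were at 2.54%, 5.07% and 2.79% in controls and 0.962%, 1.52% and 0% in KO. The second Meioc window (chr11:102666001-102667000), at a meiotic regulator, went the other way, from 41.8%, 45.3% and 49.5% to 60.4%, 43.5% and 66.4%. It overlapped and was not called, except as higher without KO 2 (17.9 points, adjusted p 0.0288). Prdm9, which marks sites of meiotic recombination, was at 1.48%, 1.90% and 1.76% in controls and 1.27%, 1.89% and 0.862% in KO. The calls of Sycp2, Tex19.1, Ddx4 and Fkbp6 were lost when single libraries were left out, among them control 2 for each, and the count of 15 then ran from 11, without control 2, to 18, without KO 3.

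**Figure D5:**
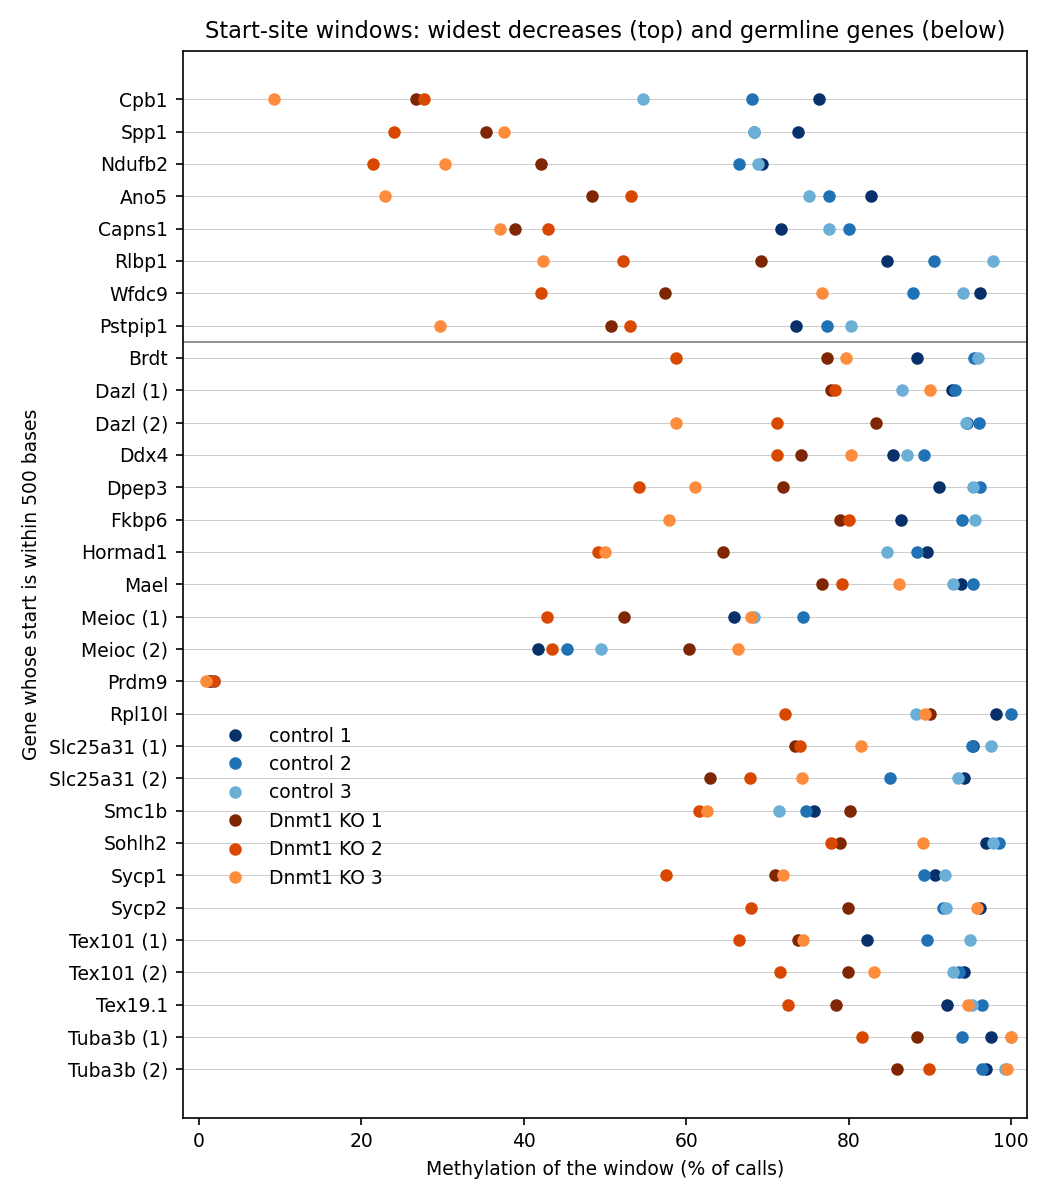
Methylation of start-site windows in each library, for the 8 widest decreases (above the line) and the 23 windows of germline genes (below it, numbered where a gene has more than 1). The x axis is percent of calls and each point is 1 library. In the upper 8 the 3 KO lie below the 3 controls, and in the germline windows KO 3 often lies nearest to the controls.

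RNA of most germline genes with a measured start rose. Of the 18 genes with a start-site window 15 were higher in KO and 0 lower by edgeR, with 6.36% of all 18131 genes tested higher and 8.23% lower. Of the 13 genes with a called window 11 were higher. Dazl went from 0, 5 and 4 reads in control libraries to 2060, 1780 and 2532 in KO (edgeR adjusted p 3.67e-05). Sohlh2 had 0, 0 and 1, and 1121, 1110 and 1298, and Tex101 had 0, 0 and 3, and 14, 21 and 32. Tuba3b, whose windows were not called, had 2, 1 and 0, and 782, 997 and 947. Sycp1 (25, 32 and 96, and 26, 23 and 56) and Brdt (130, 167 and 124, and 192, 153 and 160) were the called start sites whose RNA did not pass. The RNA calls of Smc1b, Ddx4 and Meioc were lost when single libraries were left out (edgeR adjusted p up to 0.177). This list was drawn up with results of these data known, so its direction is no independent evidence.

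Start sites of 6 other lists were unmethylated on average in both groups. The 15 windows of nephron progenitor genes averaged 1.18% ± 0.182 in controls and 1.46% ± 0.0920 in KO, the 15 of early nephron genes 1.404% and 1.81%, and the 22 of Hox genes 3.43% and 3.63%. Housekeeping genes, stromal genes and the methylation machinery were between 1.08% and 1.504% in controls. Of the 80 start-site windows of these 6 lists 0 were called lower by the quasi-binomial model, beside 5.93% of all 8943 start-site windows. In that direction 1 reached an unadjusted p under 0.05, and limma called 0. Outside the Hox list the highest control mean of a window was 6.48%, so none of those windows had 10 points to lose. Their 0 was thus fixed by the rule for a call, also for limma. The highest Hox window was at 17.5% in controls. The remaining lists held single methylated starts, among them 3 that had lower means in KO and were not called. A window of Erg, an endothelial transcription factor, was at 71.2%, 70.6% and 80.8% in controls and 70.0%, 53.2% and 34.6% in KO (adjusted p 0.0823). That of Elf5, a ureteric list member, was at 43.0%, 56.8% and 63.8% and at 44.3%, 25.6% and 37.0% (adjusted p 0.0551). That of Hnf4a, a proximal tubule transcription factor, was at 61.7%, 72.0% and 78.9% and at 47.2%, 54.9% and 68.1% (adjusted p 0.212). In Elf5 and Hnf4a the groups overlapped, and in Erg they did not.

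Windows within 5 kb of kidney genes, start sites included, were also called lower where they were methylated. Over all 27662 windows of 60% or more in controls, 24140 (87.3%) were called. Nephron progenitor genes had 85 windows, of which 18 (21.2%, beside 51.9% of all windows) were called lower, and of their 17 methylated windows 16 were. For podocyte genes the methylated windows called were 15 of 15 and for stromal genes 7 of 8, which is also above the share over all. Below that share were early nephron genes with 26 of 31, tubule genes with 21 of 27, ureteric genes with 10 of 13 and endothelial genes with 14 of 21. The retained share of these methylated windows ran from 67.0% in stromal genes to 75.3% in ureteric genes, beside 73.6% over all 27662. Windows near marker genes of cell types outside the Six2 lineage were called lower as well. In a bulk sample a window near a marker gene is read from the DNA of all cells. These calls therefore do not say which cell types lost methylation. Leukocyte genes with 6 of 8, imprinted genes with 38 of 47 and housekeeping genes with 6 of 7 were below the share over all, the methylation machinery with 22 of 25 was just above it, and Hox genes had 0 such windows.

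Single members show the range. Crym, a nephron progenitor marker that binds thyroid hormone, had 1 window at 67.7%, 53.9% and 87.5% in controls and 32.9%, 42.8% and 21.7% in KO, a difference of -37.3 points. The 3 windows of Cd2ap, a podocyte slit diaphragm adaptor, went from 85.7%, 85.1% and 83.0% to 56.1%, 54.0% and 59.0%. Col3a1, the stromal collagen III gene, went from 84.0%, 85.1% and 80.2% to 57.0%, 58.4% and 54.7%, and Cx3cr1, a macrophage chemokine receptor gene, from 98.7%, 94.9% and 96.8% to 69.2%, 65.8% and 68.1%. In the last 3 the KO libraries lay within 6 points of each other and well below the controls. Gdnf, a growth factor for the ureteric bud, had 2 of 5 windows called lower. Its mean went from 36.3%, 38.1% and 36.1% to 30.5%, 24.999% and 28.7%, with window differences from -29.2 to 2.69 points and a median of 0.0232.

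Start-site windows of differentiated nephron cells were called in 1 tubule and 1 podocyte gene. Pvalb, a calcium-binding protein of the distal tubule, went from 93.8%, 96.2% and 97.2% to 62.6%, 59.5% and 61.5% (chr15:78206001-78207000; difference -34.5 points), and Nphs1, which encodes nephrin, from 42.4%, 38.0% and 37.0% to 19.2%, 29.8% and 21.2%. In both the groups were apart. Their RNA fell as well, with Pvalb reads of 202, 151 and 239 in control libraries and 20, 8 and 16 in KO (log2 fold change -3.55, edgeR adjusted p 0.000671) and Nphs1 reads of 1933, 1247 and 3503, and 189, 243 and 193 (log2 fold change -3.20, edgeR adjusted p 0.000549). RNA was lower by edgeR for all 4 tubule genes with a start-site window, of which 1 had a called window. The same held for 1 of 3 such podocyte genes, beside 8.23% of all genes tested. Hnf4a, whose window was not called, had a log2 fold change of -1.81 (edgeR adjusted p 0.00353). The start-site window of Cubn, also a tubule gene, had a higher mean in KO, by 13.8 points, and was not called. Its RNA was lower as well (log2 fold change -3.27, edgeR adjusted p 0.000606). The summed tubule and podocyte markers were lower in KO, as given above, and their part in these RNA changes was not tested.

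Imprinted genes, of which 1 parental copy is methylated, began at an intermediate level on average. Their 26 start-site windows averaged 39.3%, 34.8% and 35.0% in controls and 28.3%, 27.2% and 28.4% in KO. Control means of single windows ran from 0.0963% to 92.4%. Called lower were 6 (23.1%), beside 5.93% of all start-site windows. Of the 5 at 60% or more in controls 3 were called, beside 84.7% of all start-site windows at that level. A Plagl1 window of 3 positions (chr10:13091001-13092000), 169 bases from the start of this zinc finger gene, was at 64.3%, 58.7% and 68.8% in controls and 32.6%, 33.8% and 38.1% in KO (difference -29.1 points, quasi-binomial model, adjusted p 0.00292). A second Plagl1 window (chr10:13090001-13091000), which holds the start and 13 positions, was at 68.8%, 63.7% and 70.7% and at 66.7%, 41.4% and 77.2%, with overlap (difference -5.98 points, adjusted p 0.564), and was not called. The Plagl1 RNA counts were 9119, 7636 and 6816, and 16494, 13417 and 12670, and rose (log2 fold change 1.02, SE 0.17, edgeR adjusted p 0.00617). Plagl1 was the 1 of 6 imprinted genes with a called start-site window whose RNA passed. Of 16 tested imprinted genes with a start-site window 2 were higher and 0 lower, beside 6.36% and 8.23% of all genes tested. The other was Magel2, whose window was not called. Like the first Plagl1 window, that of Mkrn3 kept its call with each library left out. The window calls of Nnat, Nap1l5, Zrsr1 and Slc38a4 were lost in at least 1 such fit. At Kcnq1 1 of 7 windows was called lower, and the differences ran from -16.8 to 15.2 points with a median of -0.864.

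Within Dnmt1 itself the start-site window (chr9:20952001-20953000) was at 1.33%, 1.55% and 0.766% in controls and 1.94%, 2.68% and 0.709% in KO. A window in the gene body (chr9:20924001-20925000) was at 94.6%, 91.5% and 93.0% in controls and 76.4%, 70.3% and 74.7% in KO, and fell by 19.3 points (quasi-binomial model, adjusted p 0.000907). A second window within the gene's bounds (chr9:20958001-20959000) lies 888 bases from a Dnmt1 start other than the one printed above. It was at 80.9%, 81.4% and 85.1% in controls and at 75.7%, 67.4% and 87.8% in KO. The groups overlapped and it was not called, except without KO 3 (-10.9 points, quasi-binomial model, adjusted p 0.0244). Among the methylation machinery, Dnmt3l, a cofactor of the de novo enzymes, had 1 window that went from 91.3% ± 2.18 to 69.3% ± 11.3 (SD, n = 3 each).

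Across all genes, RNA changed at a minority of lower start sites, in both directions. Of the 517 genes with a lower start-site window 372 had enough counts to test by edgeR. Of these 38 (10.2%) were higher in KO and 37 (9.95%) lower, beside 6.36% and 8.23% of all genes tested. Of 6117 tested genes whose start-site windows were measured and not called lower, 243 (3.97%) were higher and 509 (8.32%) lower. The median log2 fold change was 0.04 in the first set and -0.02 in the second. Of the 38 higher genes 11 were on the germline list. With at least 10 counts required in every sample, which removes genes silent in controls, 19 of 325 (5.85%) were higher. Without control 3 the higher count was 64, and the lower count was 15 without KO 1, 16 without KO 2, 17 without control 1 and 22 without KO 3. The share over all genes in these other fits is not given here. Their counts therefore cannot be read as particular to lower start sites.

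The 91 windows that gained methylation were small in number and began at intermediate levels. Their median was 24.5% in controls and 41.9% in KO, with gains of 10.1 to 41.6 points. They lay in 47 cases inside protein-coding genes, in 12 inside noncoding genes, in 28 between genes and in 4 near a start. In 80 of them every KO lay above every control. Of the 13272 windows under 5% in controls 5 were called higher, and of the 27662 at 60% or more 0 were, with 0 at an unadjusted p under 0.05 and 0 called by limma. Of these, the 12021 at 90% or more had at most 10 points to gain, so their 0 calls were close to fixed by the rule.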

How the data were processed

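RRBS and messenger RNA libraries were compared at P0 (3 controls and 3 KO each). The deposited RRBS files give, per position, a percent and a count each of methylated and of unmethylated calls, made by the authors with Trim Galore and Bismark, and the deposited RNA files hold a count per gene from STAR 2.4.1d and HTSeq 0.6.1, per the submitters' processing notes, which name mm10 and GRCm38. The files hold no genome sequence, so density is a number of measured positions. Rows of unassigned reads, 22.9% to 35.8% of each RNA file, were left out. Calls were summed per window, and percents are methylated over all calls. Each window was tested in a quasi-binomial logistic model whose dispersion was moderated over all windows and not under 1 (Python 3.11.15, numpy 2.4.6, scipy 1.17.1). Gene tests used edgeR 4.0.16 (R 4.3.3; quasi-likelihood, TMM, filterByExpr). Both were tested on simulated data. Benjamini-Hochberg adjustment ran over all windows or all genes, and group means were compared with exact permutation tests. Same-numbered libraries did not deviate together (mean correlation -0.00531, against 0.00273 for different numbers). The labels do not say that equal numbers pair animals. This check sees only shared deviations of window levels, so it cannot exclude a pairing.

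Windows were named by rules on size: the 8 widest decreases, the 8 at starts, the 5 genes with most lower windows, the 3 smallest decreases, extremes of each list, and Dnmt1. Clone-named genes and chromosome 18 were passed over. Members and lists were chosen with earlier results of these data known. Alternatives were other coverage minimums, positions per window, window sizes, thresholds and dispersions, limma 3.58.1, DESeq2 1.42.0, other count filters and scalings, a replicate block, and each library left out. Sequences are from RefSeq (GRCm38.p6).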

Additional observations from a re-analysis of the deposited data

How the results depend on the processing

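Under the alternatives that were run, no mean, gap or count of calls over a class of windows changed direction, whereas single windows and genes named below did. Counts moved with the stringency of the call or the number of windows tested. At an adjusted p under 0.01, 27 windows were higher, with unmoderated dispersion 30 were higher and 339 start-site windows lower, and with limma on logit methylation 38 were higher. At a difference of 25 points or more, 10671 windows were lower and 11 higher, with 164 lower at starts and 93 near list genes. At least 5 calls per position gave 46658 lower windows (52.2% of 89376), 885 at starts and 441 near list genes. At least 20 calls gave 9149 (54.2% of 16896), 33 higher, 193 at starts and 87 near list genes, and a range between chromosomes of 2.22 points. At least 5 positions per window gave 7913 lower, 29 higher, 212 at starts, 88 near list genes and a range of 1.18 points, and windows of 500 bases gave 343 at starts. With KO 3 left out and windows chosen by the other 5 libraries, an alternative added after seeing the data, 44259 of 83969 windows were lower and 883 at starts.

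With each library left out in turn, lower windows ran from 21831 to 26148, higher from 63 to 131, lower at starts from 423 to 520 and near list genes from 199 to 248. The mean difference ran from -14.3 to -12.5 points, the retained share from 73.0% to 75.9%, the dense gap from 2.27 to 2.399 points (1.16 with at least 5 positions per window), the start-site gap from 0.415 to 0.848 points, and the range between chromosomes from 0.835 to 1.07 points. Of genes with a lower start site, 27 to 64 were higher in RNA, with 64 without control 3, and 15 to 50 lower, with 15 without KO 1, 16 without KO 2, 17 without control 1 and 22 without KO 3. With at least 10 counts in every sample 19 were higher. The share over all genes in these RNA fits is not given here. The least decreased windows changed sign in such fits, from -4.60 to 3.49 points for Dthd1, -4.64 to 4.83 for Wdfy3 and -3.68 to 3.95 for Arhgef26, as did the RNA log2 fold changes of Sycp1 (-0.91 to 0.44), Prdm9 (-0.75 to 0.29) and Pstpip1 (-0.18 to 0.52). The median of Cdh6 windows was 0.122 points with at least 5 positions per window, against -22.2 points. The cause of these changes was not tested.

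A replicate block gave 25108 lower and 74 higher windows, 507 lower at starts and 226 near list genes. Of genes with a lower start site it called 29 higher and 25 lower in RNA, again without the share over all genes. Over 3 pairs the exact sign-flip test of the mean difference of -13.6 points gave p 0.25, the smallest it allows. The block ended the calls of the start-site windows of Sycp2, Tex19.1, Ddx4, Nnat and Nap1l5 (adjusted p 0.0511 to 0.0819) and of the RNA of Smc1b (adjusted p 0.0955). Depth limits single windows: KO 3 has a median of 85 calls per window.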
